A study of Mus musculus with 12 samples.

Results

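What lenvatinib added to tumors already exposed to the FGFR4 inhibitor H3B-6527 was measured in 6 of the 12 tumors of the series, chosen by their treatment labels: the 3 given the combination and the 3 given H3B-6527 alone. All genes of the deposited count table entered the comparison. The tumors were xenografts of Hep3B, an established human hepatocellular carcinoma cell line, grown under the skin of female BALB/c nu/nu mice about 8 weeks old. Such mice lack T cells, a single cell line was used and tumors were taken at a single time, so the values describe 1 model at 1 moment.

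The combination tumors received H3B-6527 at 300 mg/kg and lenvatinib at 10 mg/kg. The H3B-6527 tumors received 300 mg/kg of that agent and no lenvatinib. Lenvatinib tumors (10 mg/kg) and vehicle tumors, 3 of each, supplied the same contrast without the FGFR4 inhibitor. Dosing was by mouth, once daily, and began when tumors had reached about 500 mm3 on average. Every tumor was collected 8 hours after dose 4. The labels give 3 mice per group and no pairing of mice between groups, so p-values measure the spread between tumors of separate mice. In the main fit that spread was pooled over all groups, the lenvatinib and vehicle tumors included, and is not that of the compared tumors alone.

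FGFR4 is the receptor through which the hormone FGF19, with the co-receptor beta-klotho (KLB), restrains bile acid synthesis in hepatocytes, and in liver cancers that make their own FGF19 it drives proliferation through the RAS-MAP kinase pathway. H3B-6527 is a covalent inhibitor selective for FGFR4. Lenvatinib blocks the VEGF receptors, FGF receptors, PDGFRA, KIT and RET, and is best known for cutting off the growth of tumor vessels. When oxygen is short, the HIF transcription factors turn on a set of genes that includes VEGFA, carbonic anhydrase CA9 and glycolytic enzymes.

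The libraries held 32.8, 31.0 and 40.9 M (mega) counts in the combination tumors and 40.4, 38.9 and 23.8 M in the H3B-6527 tumors. A floor of 3 counts stood between 0.0762 and 0.126 CPM (counts per M of the scaled library total) over the 6 libraries. The biological coefficient of variation within a group was 11.2% for combination, 21.5% for H3B-6527, 10.7% for lenvatinib and 8.16% for vehicle, so the spread was widest among H3B-6527 tumors. H3B-6527 replicates 1 and 3 lay at opposite ends of component 1 of the 6 tumors, which held 40.43% of the variance, with scores of −46.9 and 39.1, and the 3 combination tumors lay between them at −14.9, −2.64 and 17.8. Component 2, with 22.75% of the variance, held the combination tumors between 7.15 and 25.1 and the H3B-6527 tumors between −26.1 and −7.09. Without H3B-6527 replicate 1 the coefficient of that group was 14.4%, and without replicate 3 it was 20.7%.

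With lenvatinib added, 2 genes rose past the threshold and 0 fell. Among 15836 genes tested with edgeR's quasi-likelihood test and Benjamini-Hochberg adjustment, JAML and AMDHD1 were higher in the combination at an adjusted p under 0.05, which is 0.0126% of genes tested. A fit of the 6 tumors alone called 1 gene, LGI4, and neither of these 2. At an unadjusted p under 0.05, 803 genes were higher (5.07%) and 689 were lower (4.35%). DESeq2 called 76 genes higher and 17 lower on the same libraries, and limma voom called 3 higher and 0 lower. Over all genes the median log2 difference, combination minus H3B-6527, was −0.01, and 47.4% of genes were positive. All 3 combination tumors lay above all 3 H3B-6527 tumors for 943 genes (5.95%), and below them for 1132 genes (7.15%). Leaving out H3B-6527 replicate 3 brought the count of higher genes to 16, leaving out replicate 2 or 1 brought it to 7 or 4, and leaving out combination replicate 2 or 3 brought it to 1 or 0.

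**Figure D1:**
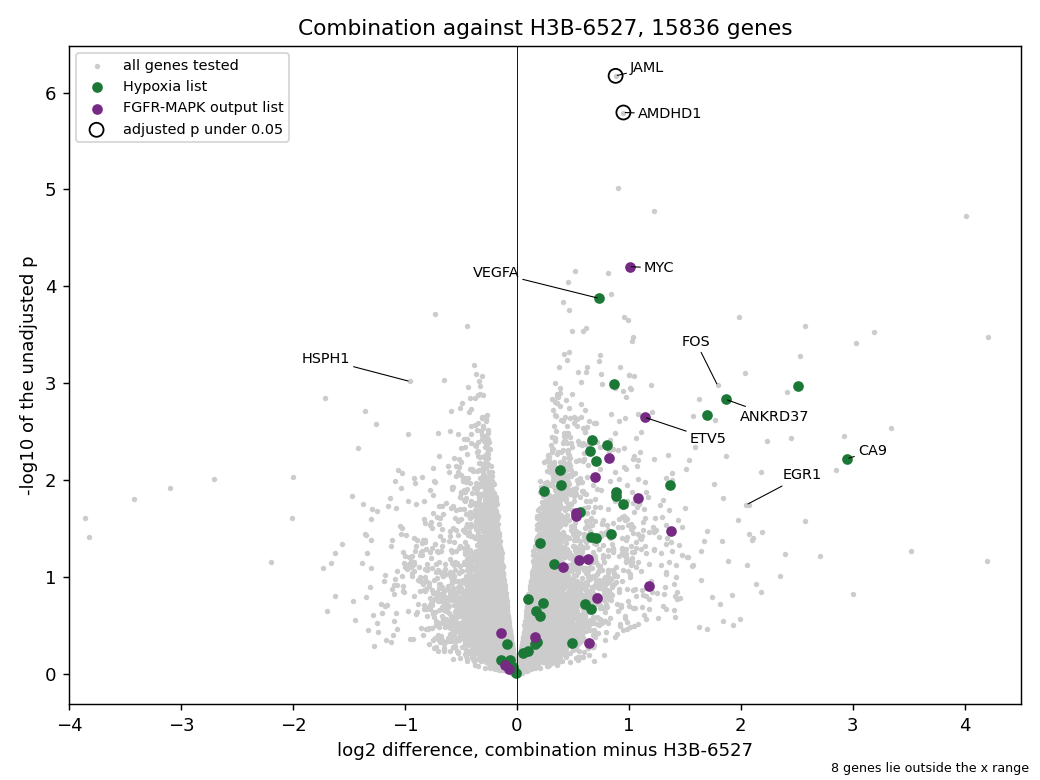
Each point is 1 of 15836 genes, with its log2 difference (combination minus H3B-6527) on the x axis and −log10 of the unadjusted edgeR p on the y axis; green and purple points are the Hypoxia and FGFR-MAPK output lists. Only JAML and AMDHD1, ringed, passed the adjusted threshold, and most green and purple points lie right of 0.

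JAML encodes an adhesion molecule of the junctional adhesion family best known from leukocytes and epithelia. It measured 23.3, 20.3 and 21.0 CPM in the combination tumors, against 13.1, 10.6 and 11.3 CPM in the H3B-6527 tumors. The log2 difference was 0.88 ± 0.10 (SE from the fit of all groups, n = 3 tumors a group, edgeR adjusted p = 0.0107). AMDHD1, an enzyme of histidine breakdown in the liver, measured 23.9, 27.0 and 32.1 CPM in the combination tumors, against 12.7, 14.4 and 16 CPM in the H3B-6527 tumors. Its log2 difference was 0.95 ± 0.12 (edgeR adjusted p = 0.0127). For both genes every combination tumor lay above every H3B-6527 tumor, and the tumors of a group lay close together. Lenvatinib tumors averaged 29.8 CPM of JAML and 50.9 CPM of AMDHD1, against 25.4 and 43.0 CPM in vehicle tumors, so the combination values stood between those of H3B-6527 and vehicle. The lenvatinib minus vehicle differences were 0.23 ± 0.10 for JAML and 0.24 ± 0.11 for AMDHD1, and neither passed edgeR's test (adjusted p = 0.388 and 0.459). The adjusted p of JAML ran from 2.69e-11 to 0.318 over 14 other settings and that of AMDHD1 from 2.16e-10 to 0.354. For both genes the highest value came from the fit of the compared tumors alone.

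The next genes by p among those without overlap missed the threshold, and 5 of them are given here. SLCO1B3, the hepatocyte uptake transporter OATP1B3 whose reads could be shared with its relatives SLCO1B1 and SLCO1B7, measured 89.9, 95.4 and 85.8 CPM in the combination tumors, against 58.2, 44.8 and 41.9 CPM in the H3B-6527 tumors (log2 difference 0.90 ± 0.13, edgeR adjusted p = 0.0509). It was past the threshold in 6 of the other settings, among them limma voom and DESeq2. The growth-promoting transcription factor MYC measured 11.7, 14.3 and 15.3 CPM with the combination and 5.27, 7.13 and 8.38 CPM with H3B-6527 (1.01 ± 0.17, edgeR adjusted p = 0.145). MYC stood higher in the tumors without H3B-6527, at 45.4 ± 8.45 CPM with lenvatinib and 47.2 ± 1.02 CPM with vehicle (SD, n = 3). AGTR1, the angiotensin II receptor, differed by 0.81 ± 0.14, the SET-binding protein gene SETBP1 by 0.52 ± 0.09 and the membrane receptor PAQR9 by 0.46 ± 0.08 (edgeR adjusted p between 0.145 and 0.157). The combination mean lay between the H3B-6527 and vehicle means for 4 of these 5 genes, and for PAQR9 it was 36.3 CPM, against 26.5 CPM with H3B-6527 and 35.7 CPM with vehicle. The plot of levels by tumor shows SLCO1B3 and MYC.

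**Figure D2:**
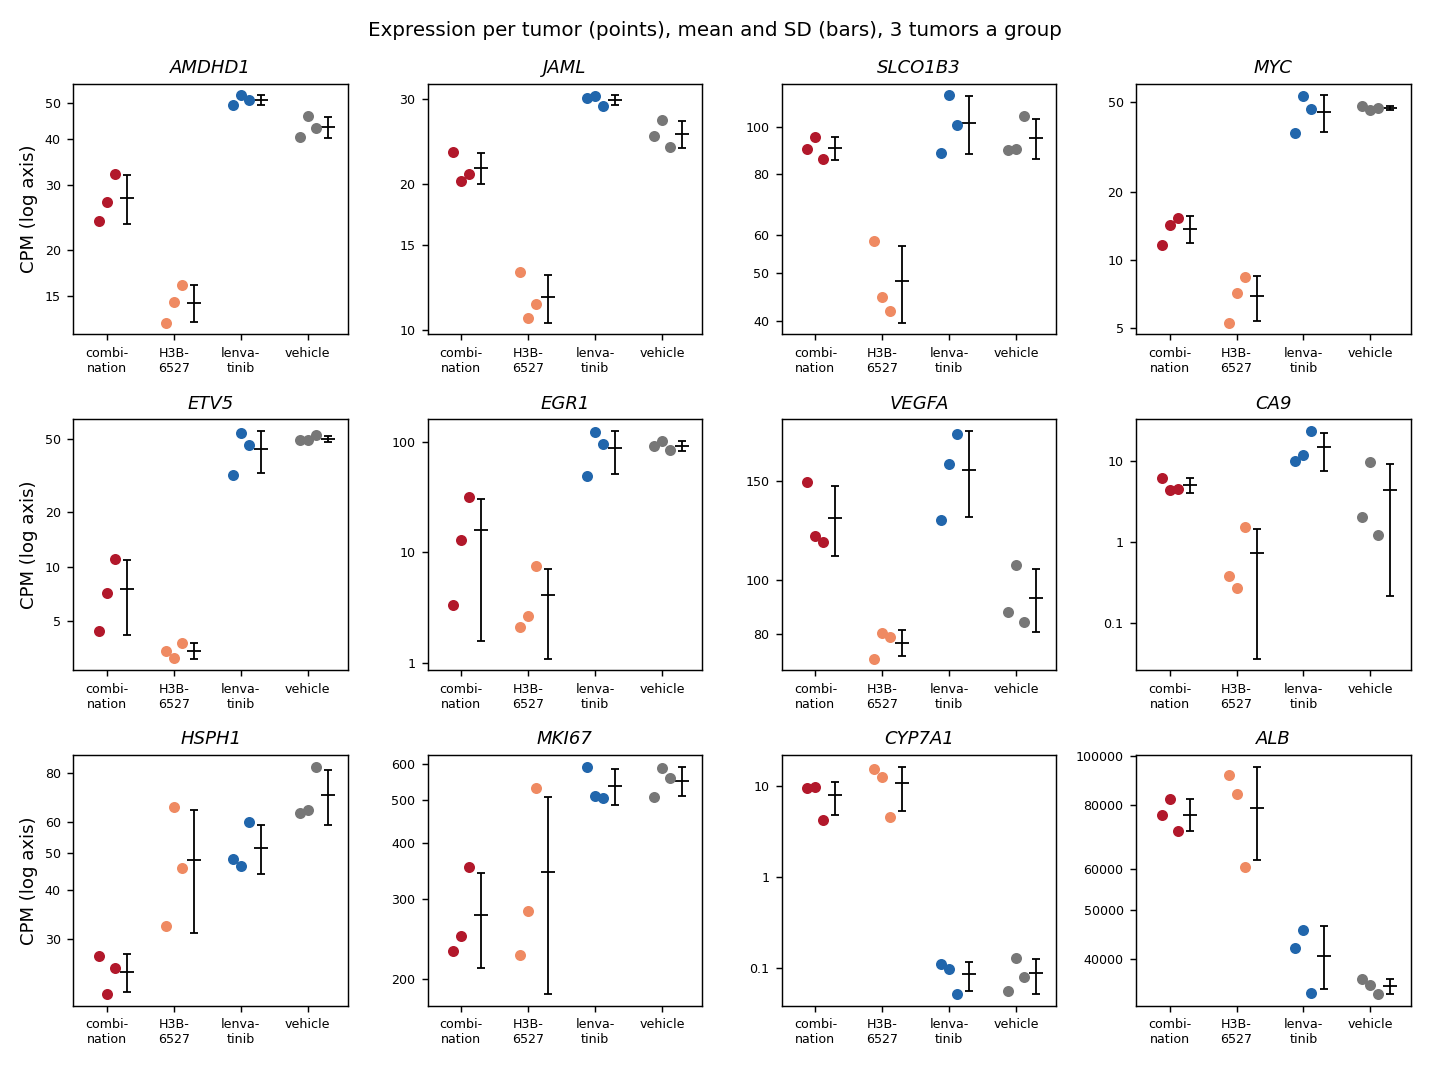
Expression of 12 genes in CPM on log axes that differ between panels, with 1 point per tumor for combination, H3B-6527, lenvatinib and vehicle, and bars for the mean and SD of 3 tumors. Lower bars were kept above 0, which cut them shorter than the SD for CA9 in H3B-6527 and vehicle tumors. The 2 groups with H3B-6527 do not overlap for AMDHD1, JAML, SLCO1B3, MYC, ETV5, VEGFA, CA9 and HSPH1, and overlap for EGR1, MKI67, CYP7A1 and ALB.

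On the lower side 0 genes passed edgeR's test, and the 5 genes given here all had adjusted p = 0.289. The co-chaperone HSPH1 measured 27.0, 21.6 and 25.2 CPM in the combination tumors, against 32.3, 65.4 and 45.5 CPM in the H3B-6527 tumors, a log2 difference of −0.96 ± 0.22. The stress-activated kinase MAP3K20 differed by −0.65 ± 0.15. NPLOC4, a cofactor in the removal of ubiquitinated proteins, the nuclear import factor KPNA1 and the chromatin protein LRIF1 differed by −0.31 ± 0.07, −0.33 ± 0.08 and −0.36 ± 0.08. These 5 genes were picked by p among genes in which every combination tumor lay below every H3B-6527 tumor, so their lack of overlap follows from the selection. Of the 8 lower genes with the smallest p, 7 were also negative for lenvatinib minus vehicle, and 3 of them did not overlap there, against 10.9% of all genes on that side. Of the 8 higher genes, 6 were also positive there, and 3 did not overlap, against 11.8% of all genes. The median of all genes in lenvatinib minus vehicle was 0.007.

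The named gene groups were 29 lists of tumor pathways holding 585 tested genes. No member of any list passed edgeR's test in this comparison, while DESeq2 called 16 members, against 0.611% of the genes to which it gave an adjusted p, of which 5 belonged to the Hypoxia list and 2 to the FGFR-MAPK output list. Limma voom called SLCO1B3 alone among them, against 0.0189% of all genes. The plot of gene lists gives every member and every median. Bulk RNA cannot tell fewer cells of a type from less RNA per cell, which holds for each list below.

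**Figure D3:**
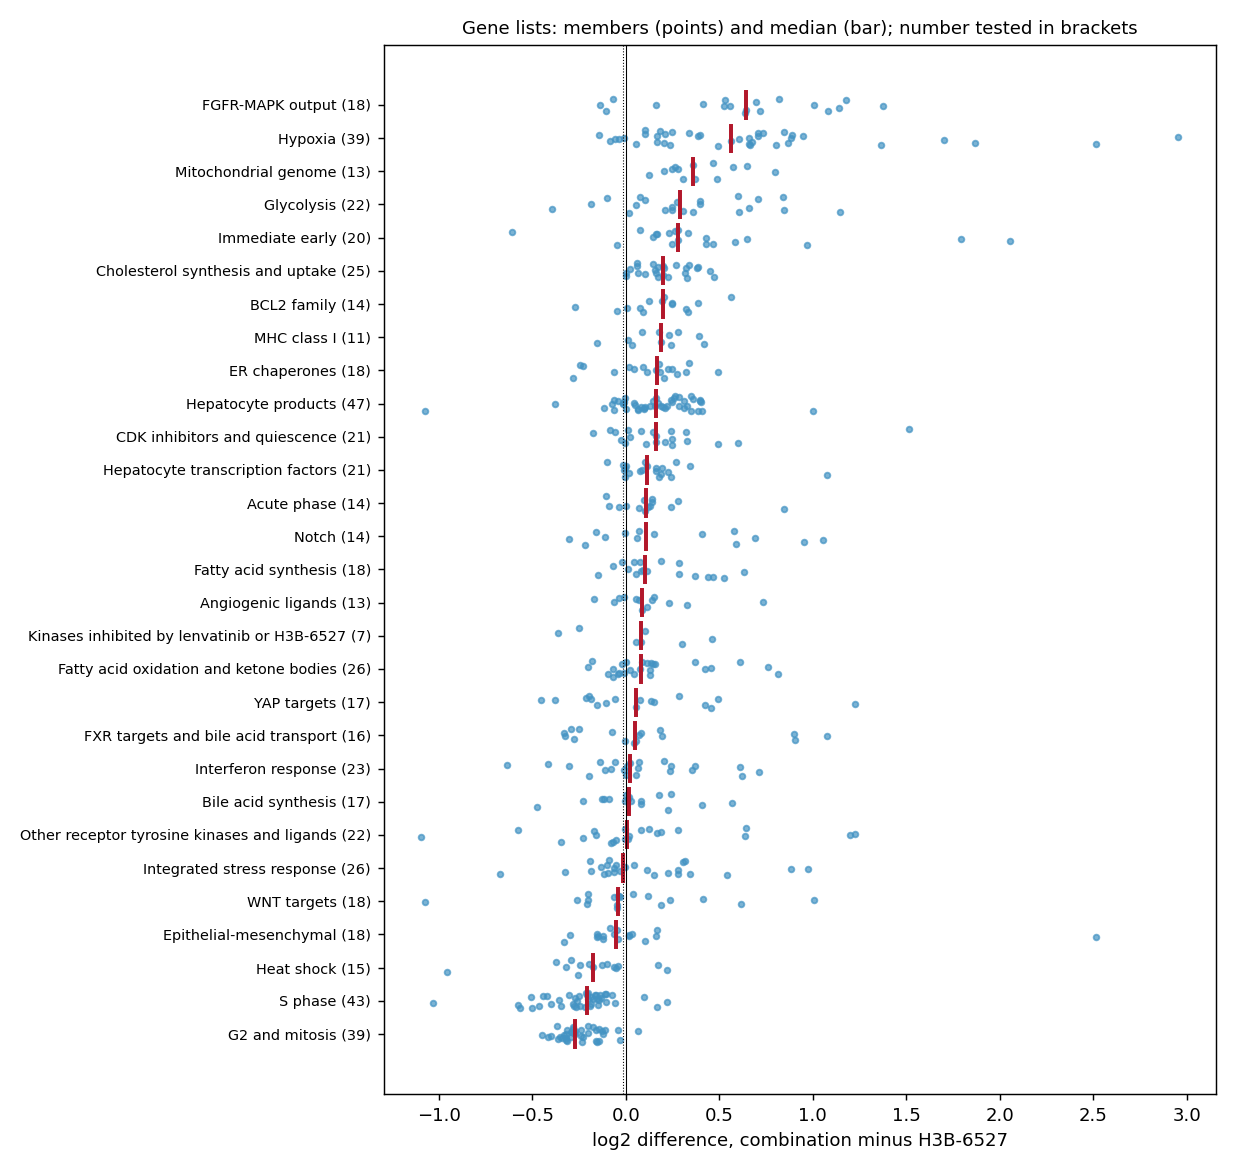
Log2 difference, combination minus H3B-6527, for every tested member (points, spread vertically at random) of the 29 tumor lists, with the list median as a red bar and the median of all genes as a dotted line. FGFR-MAPK output and Hypoxia have the highest medians, 0.64 and 0.56, and G2 and mitosis the lowest, −0.27.

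Genes that respond to low oxygen stood higher in the combination. Of 39 tested members of the Hypoxia list, 34 had a positive difference, and in 20 of them (51.3%) all 3 combination tumors lay above all 3 H3B-6527 tumors, against 5.95% of all genes. None lay wholly below. The median difference was 0.56, and it ran from 0.44 to 0.55 with any 1 of the 6 tumors left out. At an unadjusted p under 0.05, 22 members were higher and 0 lower, against 5.07% and 4.35% of all genes.

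VEGFA, the ligand that recruits tumor vessels, measured 150, 120 and 117 CPM in the combination tumors, against 72.5, 80.3 and 79.2 CPM in the H3B-6527 tumors. Its log2 difference was 0.73 ± 0.14 (edgeR adjusted p = 0.191). The lowest combination tumor stood well above the highest H3B-6527 tumor. CA9, an acid-exporting carbonic anhydrase induced by HIF, measured 6.29, 4.42 and 4.60 CPM in the combination tumors, against 0.386, 0.271 and 1.55 CPM in the H3B-6527 tumors (2.95 ± 0.86, edgeR adjusted p = 0.369). H3B-6527 replicate 3 was the highest of its group for CA9 and still below every combination tumor. ANKRD37, an ankyrin-repeat gene induced by HIF, differed by 1.87 ± 0.46, and the oxygen-sensing hydroxylase gene EGLN3 by 1.36 ± 0.46. The MYC antagonist MXI1 differed by 0.87 ± 0.21, the mTOR inhibitor gene DDIT4 by 0.88 ± 0.31, and the mitophagy receptor genes BNIP3L and BNIP3 by 0.56 ± 0.21 and 0.39 ± 0.12. Each of these 6 was without overlap. Not all members followed: the lipase inhibitor gene ANGPTL4 measured 10.2, 10.8 and 12.4 CPM with the combination and 11, 11.5 and 12 CPM with H3B-6527. NDRG1 was higher by 0.60 ± 0.43 but overlapped. It measured 344, 338 and 258 CPM with the combination and 258, 192 and 167 CPM with H3B-6527.

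The same list in the 6 other tumors gave similar numbers. Lenvatinib minus vehicle had a median of 0.50 over the 39 members, with 36 positive and 16 without overlap on the higher side (41.0%), against 11.8% of all genes in that contrast. The 2 contrasts share no library, but the list was chosen with earlier results of these data known. In lenvatinib minus vehicle edgeR called 0 genes of the table, with 957 higher (6.04%) and 741 lower (4.68%) at an unadjusted p under 0.05, while a fit of those 6 tumors alone called 189, DESeq2 243 and limma voom 6. VEGFA differed by 0.76 ± 0.14 between lenvatinib and vehicle, at 128, 160 and 182 CPM against 87.6, 106 and 84.2 CPM. The difference of the 2 differences for VEGFA was −0.02 ± 0.19 (edgeR adjusted p = 0.997). NDRG1 and ANGPTL4 were set further apart by lenvatinib on vehicle, 2.12 ± 0.45 and 0.68 ± 0.20, than on H3B-6527, 0.60 ± 0.43 and −0.04 ± 0.19, though neither difference of differences passed (edgeR adjusted p = 0.905 and 0.871). Both genes stood above vehicle in H3B-6527 tumors. For NDRG1 these held 206 ± 47.2 CPM, against 34.4 ± 27.8 CPM in vehicle tumors (SD, n = 3), where replicate 2 stood apart at 66.4 CPM. The list as a whole did not share this. Its median was −0.28 for H3B-6527 minus vehicle and 0.21 for combination minus vehicle.

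**Figure D4:**
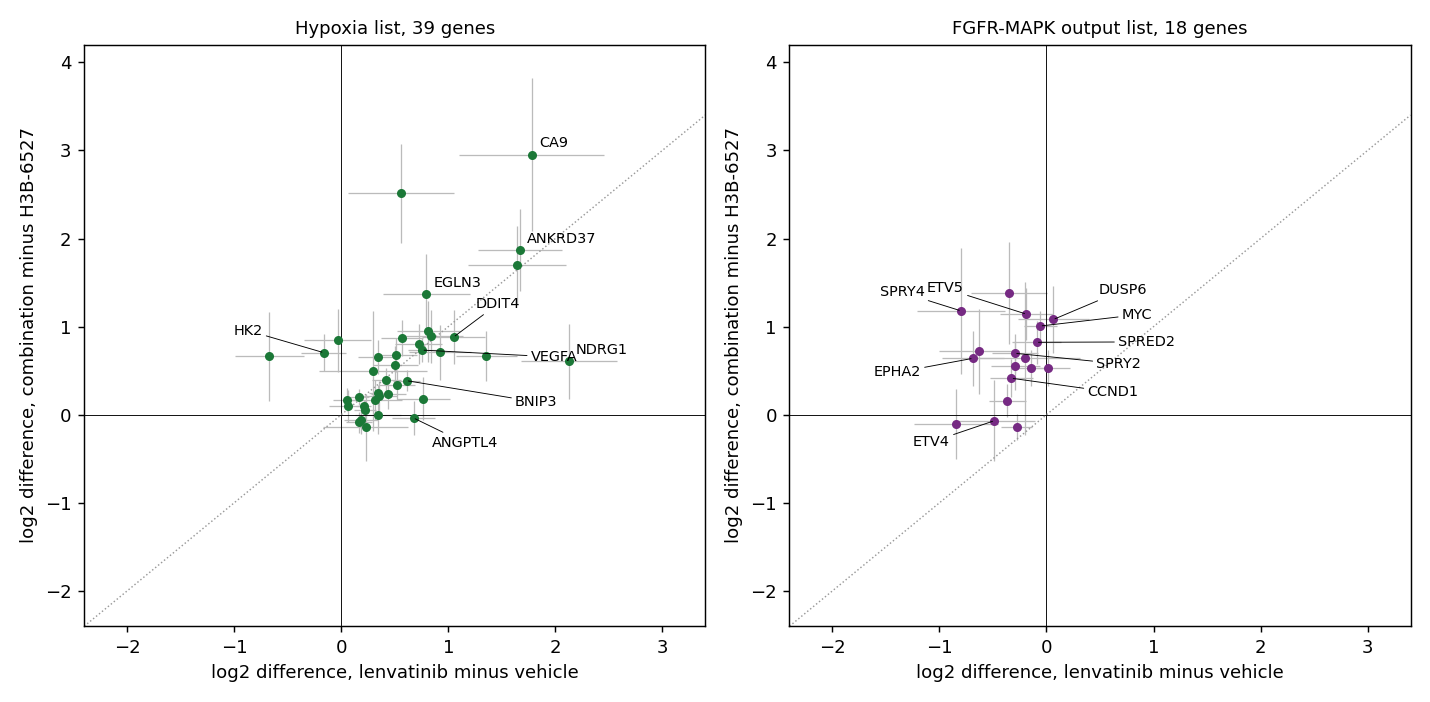
Log2 difference with lenvatinib on top of H3B-6527 (y axis, combination minus H3B-6527) against that with lenvatinib alone (x axis, lenvatinib minus vehicle) for the Hypoxia and FGFR-MAPK output lists; grey lines are standard errors and the dotted line marks equal differences. Of the Hypoxia genes 36 of 39 lie right of 0 on the x axis, and of the FGFR-MAPK output genes 2 of 18 do, while 34 of 39 and 15 of 18 lie above 0 on the y axis.

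Glycolytic enzymes and transporters, 6 of which are also in the Hypoxia list, had a median of 0.29 over 22 tested genes, with 19 positive and 7 without overlap on the higher side (31.8%, against 5.95% of all genes). Aldolase A (ALDOA) measured 608, 573 and 561 CPM in the combination tumors, against 249, 377 and 480 CPM in the H3B-6527 tumors (0.66 ± 0.19, edgeR adjusted p = 0.360). Pyruvate kinase PKM differed by 0.60 ± 0.18 and hexokinase 2 (HK2) by 0.70 ± 0.21. H3B-6527 replicate 1 was the lowest of the 6 tumors for ALDOA and PKM and replicate 3 the nearest to the combination. The list median in lenvatinib minus vehicle was 0.27.

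Genes induced through FGF receptors and MAP kinases also stood higher in the combination. Of 18 tested members of the FGFR-MAPK output list, 15 were positive and 4 did not overlap on the higher side (22.2%, against 5.95% of all genes); the median was 0.64. That median ran from 0.43 to 0.96 with 1 tumor left out, the lowest without H3B-6527 replicate 1 and the highest without replicate 3. ETV5, an ETS transcription factor downstream of ERK, measured 4.43, 7.15 and 11 CPM in the combination tumors, against 3.42, 3.14 and 3.81 CPM in the H3B-6527 tumors (1.14 ± 0.29, edgeR adjusted p = 0.326), and without combination replicate 3 the difference was 0.75. DUSP6, a phosphatase that switches ERK off and is induced by it, measured 6.04, 9.71 and 15.8 CPM with the combination and 2.70, 5.07 and 7.62 CPM with H3B-6527, so the groups overlapped (1.08 ± 0.38, edgeR adjusted p = 0.428); without combination replicate 3 it was 0.65. The feedback inhibitors SPRY2 and SPRED2 differed by 0.70 ± 0.22 and 0.82 ± 0.25, and each overlapped. The receptor gene EPHA2 and the cyclin gene CCND1 overlapped too, at 0.64 ± 0.31 and 0.41 ± 0.21, with ranges of 0.42 to 1.05 and 0.24 to 0.62 with 1 tumor left out. ETV4, close kin of ETV5, measured 1.42, 2.69 and 3.68 CPM with the combination and 0.926, 2.90 and 4.78 CPM with H3B-6527, and its difference ran from −0.51 to 0.48 with 1 tumor left out. Both groups stayed far under the level in the other tumors: DUSP6 averaged 10.5 CPM with the combination and 5.13 CPM with H3B-6527, against 84.3 CPM with lenvatinib and 80.6 CPM with vehicle.

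In lenvatinib minus vehicle, the same 18 genes had a median of −0.29, and 2 were positive. The difference of the 2 differences had an unadjusted p under 0.05 for 11 of the 18, against 854 genes (5.39%) of the whole table, of which 0 passed edgeR's test after adjustment. DESeq2 called 18 genes in that contrast (0.138% of those to which it gave an adjusted p), MYC, JAML, AMDHD1 and SLCO1B3 among them, and limma voom called 0. MYC had a difference of differences of 1.06 ± 0.23 (edgeR adjusted p = 0.686), ETV5 of 1.33 ± 0.38 and EPHA2 of 1.33 ± 0.43 (edgeR adjusted p = 0.768 for both). Within each H3B-6527-treated group the list followed the order of the tumors on component 1, with replicate 1 lowest and replicate 3 highest in both groups for DUSP6, SPRY2, SPRED2 and EPHA2. The numbers only name the tumors. Whether the place of a tumor on that axis has a part in the list's difference was not tested.

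Immediate early genes, the first to be transcribed after a growth signal, had a median of 0.28 over 20 genes, with 18 positive and 3 without overlap on the higher side (15.0%, against 5.95% of all genes). FOS measured 0.822, 2.45 and 2.41 CPM in the combination tumors, against 0.540, 0.461 and 0.670 CPM in the H3B-6527 tumors (1.79 ± 0.42, edgeR adjusted p = 0.289). EGR1 measured 3.32, 12.9 and 31.4 CPM with the combination and 2.08, 2.63 and 7.50 CPM with H3B-6527. The EGR1 groups overlapped, and combination replicate 3 stood apart at the top; the difference was 2.05 with it and 1.06 without it. JUND, a constitutively expressed AP-1 member, differed by 0.43 ± 0.11 without overlap. Among growth factor genes, the EGF receptor ligand epiregulin (EREG) measured 0.949, 1.31 and 1.68 CPM with the combination and 0.514, 0.461 and 0.796 CPM with H3B-6527 (1.20 ± 0.29, edgeR adjusted p = 0.289).

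Of the 7 tested target genes of the agents, only FGFR2 did not overlap between the groups (14.3% on the higher side, against 5.95% of all genes). FGFR4 measured 125, 132 and 135 CPM in the combination tumors, against 103, 132 and 135 CPM in the H3B-6527 tumors (0.08 ± 0.10, edgeR adjusted p = 0.832). KLB measured 210, 215 and 171 CPM with the combination and 329, 216 and 163 CPM with H3B-6527, and FGF19 stood between 1.23 and 2.51 CPM with the combination and between 0.695 and 2.89 CPM with H3B-6527. The signs of these 3 genes turned when H3B-6527 replicate 1 was left out, with differences of −0.031 for FGFR4, 0.068 for KLB and −0.37 for FGF19. FGFR2 measured 33.5, 37.0 and 45.2 CPM with the combination and 30.3, 25.4 and 28.6 CPM with H3B-6527 (0.46 ± 0.17, edgeR adjusted p = 0.431). FGFR1 stood at 4.46, 3.35 and 5.21 CPM with the combination and 2.80, 5.58 and 8.92 CPM with H3B-6527, and PDGFRA at 22.8 to 26.9 CPM with the combination and 21.4 to 25 CPM with H3B-6527. With 1 tumor left out the difference ran from −0.70 to 0.073 for FGFR1 and from 0.028 to 0.18 for PDGFRA. VEGFB, a VEGF family ligand, differed by 0.33 ± 0.10 without overlap, and 9 of 13 angiogenic ligand genes were positive, with a median of 0.09 that ran from −0.0073 to 0.24 with 1 tumor left out.

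Genes of bile acid synthesis, which FGFR4 signaling restrains, and FXR targets and bile acid transport genes showed no common direction. Over 17 synthesis genes the median was 0.02, with 11 positive and 6 negative, and it ran from −0.08 to 0.21 with 1 tumor left out. CYP7A1, the rate-limiting enzyme, measured 9.68, 9.88 and 4.29 CPM in the combination tumors, against 15.4, 12.7 and 4.65 CPM in the H3B-6527 tumors. In each group replicate 3 was the lowest, and both groups were far above the 0.0558 to 0.127 CPM of vehicle tumors. CYP8B1, which sets the share of cholic acid, stood at 3.04, 2.35 and 1.83 CPM with the combination and 2.83, 1.00 and 0.921 CPM with H3B-6527. With 1 tumor left out the difference ran from −0.82 to −0.16 for CYP7A1 and from 0.31 to 1.31 for CYP8B1. The 16 FXR targets and bile acid transport genes split into 9 positive and 7 negative, with a median of 0.05 (−0.036 to 0.19 with 1 tumor left out) and 1 member without overlap on the higher side (6.25%, against 5.95% of all genes). NR0B2, the bile acid-induced repressor SHP, measured 7.27, 14.4 and 15.4 CPM with the combination and 3.58, 5.04 and 9.42 CPM with H3B-6527 (1.08 ± 0.33, edgeR adjusted p = 0.379), with overlap. The bile acid exporter subunit SLC51A also overlapped and differed by 0.90 ± 0.37, between 0.51 and 1.41 with 1 tumor left out. The sterol dehydrogenase HSD17B6 of the synthesis list differed by 0.41 ± 0.16 without overlap, and by 0.26 without H3B-6527 replicate 3.

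All 25 tested genes of cholesterol synthesis and uptake were positive, with a median of 0.20, and 10 did not overlap on the higher side (40.0%, against 5.95% of all genes). The median ran from 0.16 to 0.24 with 1 tumor left out. Mevalonate decarboxylase (MVD) measured 45.2, 47.8 and 42.6 CPM in the combination tumors, against 26.9, 36.9 and 35.4 CPM in the H3B-6527 tumors (0.45 ± 0.13, edgeR adjusted p = 0.344). The sterol sensor partner INSIG1 differed by 0.39 ± 0.12, squalene synthase (FDFT1) by 0.34 ± 0.11 and lanosterol synthase (LSS) by 0.31 ± 0.09, all without overlap. Of 18 fatty acid synthesis genes 15 were positive and 2 did not overlap on the higher side (11.1%), with a median of 0.10, between 0.093 and 0.21 with 1 tumor left out. SREBF1, the transcription factor of fatty acid synthesis, measured 254, 224 and 194 CPM with the combination and 191, 113 and 129 CPM with H3B-6527 (0.63 ± 0.19, edgeR adjusted p = 0.379). Stearoyl-CoA desaturase (SCD) differed by 0.53 ± 0.18, and by 0.34 without combination replicate 2. The list of fatty acid oxidation and ketone bodies split into 17 positive and 9 negative genes, with a median of 0.08 that ran from −0.11 to 0.24 with 1 tumor left out; its ketone body enzyme BDH1 differed by 0.61 ± 0.17. Lenvatinib minus vehicle gave 0.51 ± 0.19 for SREBF1, 0.44 ± 0.18 for SCD and 0.73 ± 0.17 for BDH1, and a median of 0.11 for the cholesterol list.

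Proliferation genes leaned downward, and the lean rested on 1 tumor. Of 43 S phase genes 40 were negative with a median of −0.21, and of 39 G2 and mitosis genes 38 were negative with a median of −0.27. Of the S phase genes 2 lay below without overlap (4.65%, against 7.15% of all genes), and of the mitosis genes 0 did. Without H3B-6527 replicate 3 the medians were 0.03 and 0.11. The proliferation marker MKI67 measured 230, 249 and 354 CPM in the combination tumors, against 226, 283 and 529 CPM in the H3B-6527 tumors (−0.32 ± 0.26, edgeR adjusted p = 0.740), and without H3B-6527 replicate 3 the difference was 0.13. The clamp loader subunit RFC3 measured 11.8, 12.5 and 15.4 CPM with the combination and 15.9, 15.9 and 23.4 CPM with H3B-6527, and did not overlap; its difference was −0.47, and −0.26 without H3B-6527 replicate 3. The spindle checkpoint kinase BUB1B differed by −0.40 ± 0.17 and the primase subunit PRIM2 by −0.35 ± 0.13, and both overlapped. Without H3B-6527 replicate 3 these differences were −0.15 and −0.23. The plot of list medians with 1 tumor left out shows how far each list leans on single tumors.

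**Figure D5:**
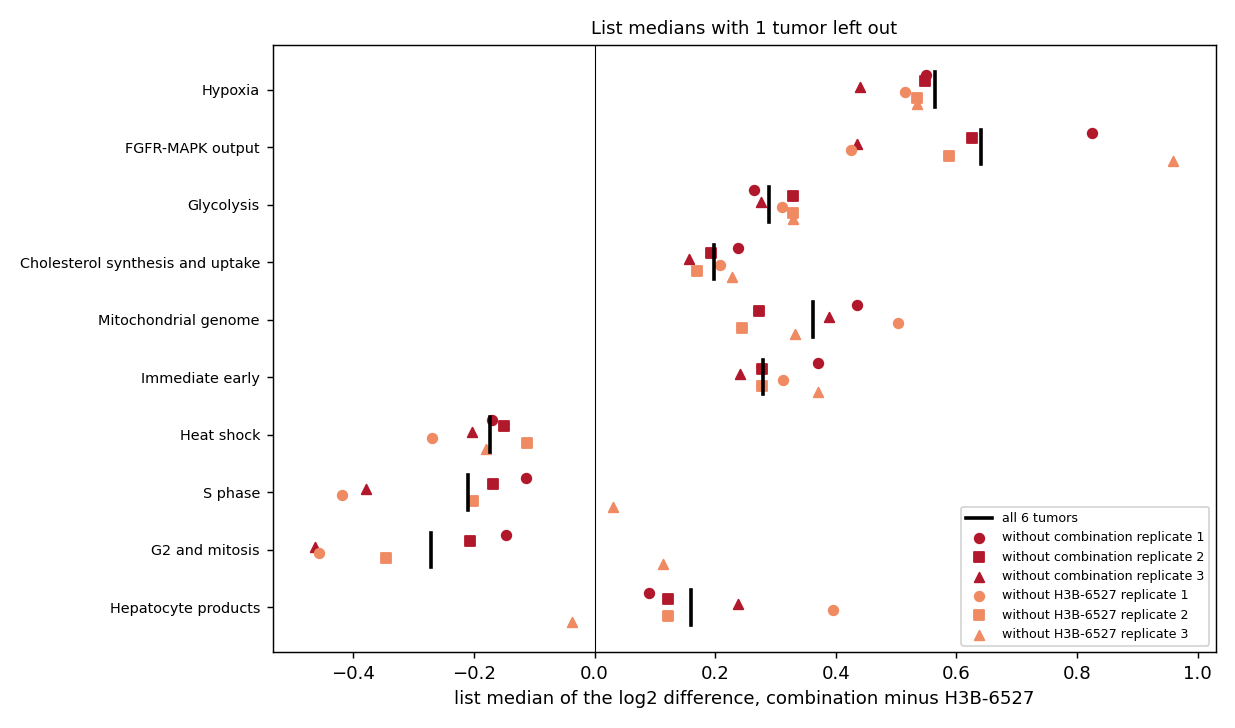
Median log2 difference, combination minus H3B-6527, of 10 gene lists with all 6 tumors (black bars) and with 1 tumor left out (symbols). Hypoxia, FGFR-MAPK output, glycolysis, cholesterol, mitochondrial genome and immediate early medians stay above 0 and heat shock below 0 throughout, whereas S phase and G2 and mitosis cross 0 without H3B-6527 replicate 3, as does hepatocyte products.

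Hepatocyte products had a median of 0.16 over 47 genes, between −0.04 without H3B-6527 replicate 3 and 0.40 without replicate 1. Albumin (ALB) measured 76600, 82420 and 71250 CPM in the combination tumors, against 91850, 84390 and 60490 CPM in the H3B-6527 tumors, and its fetal relative AFP also overlapped. The urea cycle enzyme arginase (ARG1) measured 62.2, 48.3 and 33.0 CPM with the combination and 31.0, 23.0 and 17.3 CPM with H3B-6527 (1.00 ± 0.22, edgeR adjusted p = 0.289). The inter-alpha-trypsin inhibitor heavy chain ITIH3 differed by 0.40 ± 0.13, also without overlap, and 2 of the 47 genes in all lay above without overlap (4.26%, against 5.95% of all genes).

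Stress lists divided. Of 15 heat shock genes 13 were negative, with a median of −0.17 and 2 without overlap on the lower side (13.3%, against 7.15% of all genes), HSPH1 among them. That median ran from −0.27 to −0.11 with 1 tumor left out. The chaperone cofactor CHORDC1 measured 26.2, 25.1 and 24.6 CPM in the combination tumors, against 25.5, 37.6 and 31.8 CPM in the H3B-6527 tumors, with a difference between −0.46 and −0.18 when 1 tumor was left out. The 26 integrated stress response genes had a median of −0.02, between −0.038 and 0.14 with 1 tumor left out, and included members far apart in both directions. ATF5, a transcription factor of that response, measured 84.5, 70.2 and 47.5 CPM with the combination and 38.7, 35.5 and 28.4 CPM with H3B-6527 (0.97 ± 0.23, edgeR adjusted p = 0.293). The glutathione-degrading enzyme CHAC1 differed by −0.67 ± 0.25 and the stress sensor SESN2 by −0.33 ± 0.11, both without overlap on the lower side. Of 14 BCL2 family genes 12 were positive, with a median of 0.20, between 0.099 and 0.23 with 1 tumor left out. The 2 without overlap on the higher side (14.3%, against 5.95% of all genes) were BNIP3 and BNIP3L, which are also in the Hypoxia list. Against that direction the pro-death gene BCL2L11 (BIM) measured 9.08, 10.0 and 8.99 CPM with the combination and 12.1, 11.3 and 10.5 CPM with H3B-6527 (−0.27 ± 0.11, edgeR adjusted p = 0.477). The survival gene BCL2L1 was positive like most of the list, at 0.25 ± 0.12 with overlap, and at 0.14 without H3B-6527 replicate 1.

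The 13 protein-coding genes of the mitochondrial genome, whose reads could be shared with nuclear copies, were all positive, with a median of 0.36 and 3 without overlap on the higher side (23.1%, against 5.95% of all genes). MT-CO2, a cytochrome oxidase subunit, measured 18.1, 23.7 and 19.1 CPM in the combination tumors, against 16, 13.0 and 11.8 CPM in the H3B-6527 tumors (0.57 ± 0.13, edgeR adjusted p = 0.289). All 13 were negative in lenvatinib minus vehicle, with a median of −0.19. The 17 YAP targets split into 9 positive and 8 negative, with a median of 0.05 (−0.087 to 0.14 with 1 tumor left out). Without overlap, 3 lay above (17.6%, against 5.95% of all genes) and 2 below (11.8%, against 7.15%). CTGF and CYR61 of that list measured 3.20 and 4.84 CPM on average with the combination and 2.32 and 3.99 CPM with H3B-6527, CTGF with overlap and CYR61 without. The CTGF difference was 0.45, and 0.13 without combination replicate 2. The lenvatinib minus vehicle differences of CTGF and CYR61 were −0.91 ± 0.23 and −0.38 ± 0.14. The Notch target HES1 measured 5.47, 8.26 and 8.94 CPM with the combination and 4.99, 5.23 and 4.86 CPM with H3B-6527, without overlap (0.59 ± 0.17, edgeR adjusted p = 0.344).

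Host cells entered the table only through human gene symbols, and whether mouse reads were removed before counting is not known from the sources used here. Hep3B identity genes were abundant in every tumor, with most counts from ALB and APOB and a summed level of 164000 to 179000 CPM in combination tumors and 145000 to 183000 CPM in H3B-6527 tumors. Of 29 endothelial marker symbols, 5 were at 0 in all 6 tumors and 21 averaged under 1 CPM; CDH5 and KDR, which define endothelium, had 0 to 3 counts a library. The endothelial sum ran from 112 to 120 CPM with the combination and 98.3 to 122 CPM with H3B-6527, and PROX1, which hepatocytes also express, made up 83.8 CPM of it. Macrophage and leukocyte markers, with most counts from CD68, summed to 167 to 202 CPM with the combination and 154 to 212 CPM with H3B-6527. Fibroblast markers, with most counts from the hepatocyte product FN1, summed to 2970 to 4800 CPM with the combination and 2280 to 5170 CPM with H3B-6527. Pericyte and smooth muscle markers summed to 55.8 to 61.3 CPM with the combination and 49.5 to 62.9 CPM with H3B-6527, and markers of muscle, fat, skin and blood to 62.0 to 85.2 CPM with the combination and 54.2 to 103 CPM with H3B-6527. In all 5 host lists the sums of the 3 combination tumors lay within the range of the H3B-6527 tumors.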

How the data were processed

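RNA of 12 Hep3B xenograft tumors was sequenced, and 6 of them, 3 with the combination and 3 with H3B-6527, are compared here. The deposited table holds the authors' expected counts per gene symbol, which is what kallisto estimates; 40.3% of its values were not whole and they had not been scaled. Per the submitters' processing notes the tools were STAR and kallisto and the builds GRCh37 and GRCm38; versions, roles and annotation are not given in the sources used here. Reads came from 4 lanes per library, per the labels, which name the mouse as organism, whereas the table's 36292 symbols are human (9157 had no count in any library).

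Counts were rounded to whole numbers, and filterByExpr kept 15836 genes. The main test was edgeR 4.0.16's quasi-likelihood F-test (TMM factors, robust, 2-sided, R 4.3.3) with all 12 libraries in 1 fit, with Benjamini-Hochberg adjustment across the genes kept and a threshold of 0.05. Log2 differences carry the SE of that fit, in which the spread is pooled over all groups. CPM values come from the library totals times the TMM factors. The floor of 3 counts covers counting error only. Over all 66 pairs of libraries the mean chi-square per gene ran from 7.86 to 546, against about 1 for sampling noise. The lenvatinib minus vehicle contrast and the difference of the 2 differences came from the same fit. Alternatives were a fit of the compared groups alone, limma 3.58.1 voom with and without a spread per group, DESeq2 1.42.0, other scalings and filters, and leaving out each tumor. The fit was also run on simulated counts.

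Genes were named where they passed the test (up to 12 a direction, at a mean log2 CPM of at least 1), had the 8 smallest p in each direction without overlap, were among 25 genes fixed by name, or had the 4 smallest p of a list. Genes with close paralogs, read-through names or clone names were counted and mostly not described. SLCO1B3 was described although it has close relatives. NAT8 (edgeR adjusted p = 0.0588), PCDHGC3, ZNF431 and ZNF611 were not, though they had p-values among the 8 smallest of their direction. LGI4, EPO, NEDD9 and SSTR2 were added after their values were seen. The members and the 35 lists were chosen with earlier results of these data known, so lists are described by counts and medians with no test. Sequences and gene coordinates are not reported, since no human reference was used here.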

Additional observations from a re-analysis of the deposited data

How the results depend on the processing

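The count of genes higher in the combination was 2, and it moved to 1 in the fit of the 6 tumors alone, 0 by voom with a spread per group, 76 by DESeq2 and 13 without a low-count filter. It ran from 0 to 16 with 1 tumor left out. The count of lower genes was 0 except by DESeq2, which gave 17, and the difference of the 2 lenvatinib differences called 0 except by DESeq2, which gave 18. Lenvatinib minus vehicle called 0 genes, against 189 in its 2-group fit, 282 by voom with a spread per group, 243 by DESeq2, 6 by voom, 41 without a filter and 0 to 45 with 1 tumor left out. The cause of these moves was not tested.

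The calls of JAML and AMDHD1 were lost in the 2-group fit (adjusted p = 0.318 and 0.354, edgeR), by limma voom with a spread per group (0.111 and 0.116) and without combination replicate 3 (0.0576 for both, edgeR); that of AMDHD1 was also lost without combination replicate 2 (0.0803, edgeR). Both kept their direction in all 14 settings, with differences between 0.81 and 0.98 for JAML and between 0.83 and 1.05 for AMDHD1. Of 1161 comparisons of a gene's value under another setting with its value as reported, 1104 kept direction and side of the threshold, 34 gained a call, 23 of them by DESeq2, 7 lost one and 16 changed sign.

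The sign changes were in 9 of the 83 genes compared, with reported differences between −0.36 for FGFR1 and 0.084 for FGFR4. Leaving out 1 tumor moved 30 of the 83 by over 1.5 times or changed their sign. ETV4 was 0.20 by voom with and without a spread per group, and ran from −0.51 to 0.48 with 1 tumor left out. The ranges with 1 tumor left out were −0.12 to 0.022 for ANGPTL4, −0.70 to 0.073 for FGFR1, −0.031 to 0.16 for FGFR4, −0.45 to 0.068 for KLB, −0.37 to 0.45 for FGF19, −0.19 to 0.083 for ALB, −0.13 to 0.19 for AFP and −0.55 to 0.13 for MKI67. Scaling by library totals moved the median of all genes to −0.04. No paired analysis was possible because the labels give no replicate numbers and no pairing of mice between groups. The comparison rests on 3 tumors a group, 1 cell line and 1 collection time.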

Other observations

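Gene families outside the lists, picked after their values were seen and described with no test, were also counted. Leaving out single tumors, added after the data were seen, turned the sign of the last 2 of the 3 medians. Of 78 tested cytosolic ribosomal protein genes, whose reads can be shared with many pseudogenes, 77 were positive for combination minus H3B-6527, and 41 did not overlap on the higher side (52.6%, against 5.95% of all genes). The median log2 difference was 0.37, with 0.21 as its lowest and 0.56 as its highest value when single tumors were left out (H3B-6527 replicates 1 and 2). Their summed level was 29000, 28000 and 28000 CPM in the combination tumors, against 16600, 26800 and 22100 CPM in the H3B-6527 tumors, so H3B-6527 replicate 1 stood lowest and replicate 2 near the combination. In lenvatinib minus vehicle the median was 0.21, and 70 of the 78 did not overlap on the higher side, against 11.8% of all genes. Of 489 zinc finger genes named ZNF, many with close relatives, 378 were negative, with a median of −0.13, and 61 lay below without overlap (12.5%, against 7.15%); without H3B-6527 replicate 1 the median was 0.0044, and in lenvatinib minus vehicle it was −0.02. Of 61 replication-dependent histone genes 57 were negative, with a median of −0.31, and the summed level was 3240, 3280 and 4060 CPM with the combination and 2800, 3510 and 6650 CPM with H3B-6527, where replicate 3 stood apart. Without that tumor the histone median was 0.155, with 51 of 61 positive.

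Of single genes chosen after their values were seen, LGI4, a secreted protein known from peripheral nerve, measured 7.31, 6.22 and 5.31 CPM in the combination tumors, against 1.11, 1.03 and 1.00 CPM in the H3B-6527 tumors. It also measured 3.70, 4.81 and 6.95 CPM in lenvatinib tumors, against 0.391, 2.27 and 0.499 CPM in vehicle tumors. The erythropoietin gene EPO, the classic HIF target of liver and kidney, measured 2.85, 2.38 and 1.52 CPM with the combination and 0.849, 0.434 and 0.796 CPM with H3B-6527, and 1.43, 1.70 and 1.49 CPM with lenvatinib against 0.251, 0.968 and 0.236 CPM with vehicle. Neither gene overlapped in either contrast. The adhesion scaffold gene NEDD9 measured 27.7, 24.5 and 29.8 CPM with the combination and 12.6, 12.6 and 14.8 CPM with H3B-6527, and the somatostatin receptor gene SSTR2 measured 13.1, 16 and 23.2 CPM with the combination and 7.90, 8.46 and 10.1 CPM with H3B-6527. Both NEDD9 and SSTR2 overlapped between lenvatinib and vehicle, with differences of 0.01 ± 0.20 and 0.03 ± 0.18.

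Over all 15836 genes the log2 differences of the 2 lenvatinib contrasts had Pearson r = 0.17 and Spearman rho = 0.23, and over the 12129 genes with a mean log2 CPM of at least 1 Pearson r was 0.32. These describe genes, which are not independent replicates, and the contrasts share no library. Of the 943 genes without overlap on the higher side, 682 were positive in lenvatinib minus vehicle, and of the 1132 on the lower side 372 were. The median of all genes in that contrast was 0.007.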
